A study of Homo sapiens with 6 samples.

Results

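The Krueppel-like factors described here are KLF6 and 9 of its paralogs, KLF2, KLF3, KLF4, KLF5, KLF7, KLF9, KLF10, KLF11 and KLF13. These 10 genes were taken by symbol from a table of 62438 genes, and all 10 passed the expression filter that left 17320 genes for testing. KLF6 was chosen because its normalized counts differed most clearly between si-N6AMT1 and si-CN among negative regulators of the cell cycle, so its own change is given as a description without a test. RNA-seq was performed on cells labelled MDA-MB-453, a breast cancer cell line, 48 h after transfection with siRNA at 10 nM by lipofection. Of the 6 libraries, 3 received an siRNA against N6AMT1, the gene of a methyltransferase (si-N6AMT1), and 3 a scrambled control siRNA (si-CN). Nothing in the labels says that the 3 libraries of a group came from separate cultures, so p-values measure the spread between these libraries, which may be technical. The common coefficient of variation fitted between libraries of a group, beyond counting noise, was 1.85%. With so small a spread, small changes can reach a low FDR, and the origin of the spread was not tested.

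Krueppel-like factors are transcription factors with a run of zinc fingers at the C-terminal end that binds GC-rich and CACCC elements. Because the fingers are nearly alike throughout the family, members can occupy the same elements, and they differ mainly in their N-terminal parts, which recruit activators or corepressors. In epithelia KLF4 is known for differentiation and growth arrest, KLF5 for proliferation of basal cells, and KLF6 as a growth suppressor that can activate CDKN1A.

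The libraries held from 19739247 to 21289740 estimated counts. N6AMT1 had 61, 72 and 60 counts in si-N6AMT1 and 136, 135 and 141 in si-CN, and its log2 fold change was −1.10 (SE 0.119, FDR = 3.65e-07, edgeR's quasi-likelihood test with Benjamini-Hochberg adjustment over all tested genes). MDA-MB-453 is known as a luminal line. Here the luminal markers were mixed: SPDEF had 1 to 6 counts in any library and did not pass the filter, and KRT19 was at 0.797 TPM in si-CN. FOXA1 and GATA3 were low, at 5.34 and 1.92 TPM in si-CN. KRT8 (748 TPM), KRT18 (726 TPM), XBP1 (98.2 TPM) and ERBB2 (26.2 TPM) were expressed in si-CN. All 4 basal epithelial markers passed, and KRT5 stood at a mean of 823 TPM, a level scaled for transcript length and library size, in si-N6AMT1 and 763 TPM in si-CN. Summed basal markers ran from 5141 to 5277 TPM in si-N6AMT1 and from 5172 to 5202 in si-CN, with KRT5, KRT14 and TP63 higher. KRT17 made up most of these sums, at a mean of 4121 TPM in si-N6AMT1 and 4176 TPM in si-CN. Its log2 fold change was −0.02 (FDR = 0.612, edgeR's quasi-likelihood test). Summed luminal markers ran from 1701 to 1709 TPM and from 1593 to 1618 TPM in the same order, with KRT8 and KRT18 higher. High basal markers, near-absent SPDEF and KRT19 and low FOXA1 and GATA3 go against the label. KRT8, KRT18, XBP1 and ERBB2 were expressed, but their levels were not set against those of other lines. The label is therefore kept only as a name. The part of these markers in the results below was not tested. Among leukocyte markers PTPRC had 1 to 3 counts and CD3E 0 to 2 in any library. CD68, a lysosomal protein of macrophages, rose from 185 TPM in si-CN to 262 TPM in si-N6AMT1, a log2 fold change of 0.50 (SE 0.0251, FDR = 1.65e-12, edgeR's quasi-likelihood test), and its part in the results was not tested. In these bulk samples, fewer cells of a type and less RNA per cell cannot be told apart.

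KLF6 lay lower in si-N6AMT1. On GRCh37 the gene spans positions 3818188 to 3827473 of chromosome 10, on the minus strand. KLF6 stood at 107.2, 107.0 and 102.8 CPM, counts scaled to the normalized library size, in the 3 si-N6AMT1 libraries and at 131.6, 135.1 and 133.7 CPM in si-CN. The groups did not overlap, and the highest si-N6AMT1 library was below the lowest si-CN library, as in 18.0% of all tested genes. KLF6 was chosen for this difference, so its separation is given only as a description. The means were 105.6 ± 2.49 CPM (SD, n = 3) and 133.5 ± 1.72 CPM (SD, n = 3), a log2 fold change of −0.34 (SE 0.0274), or −20.9%. The change was modest in size: 881 of the 17320 tested genes, or 5.09%, had a lower log2 fold change. The median log2 fold change was −0.18 over the genes called lower and 0.19 over those called higher. Over 14 other settings of normalization, filter, tool, block and left-out library, the log2 fold change of KLF6 lay between −0.35 and −0.32.

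**Figure D1:**
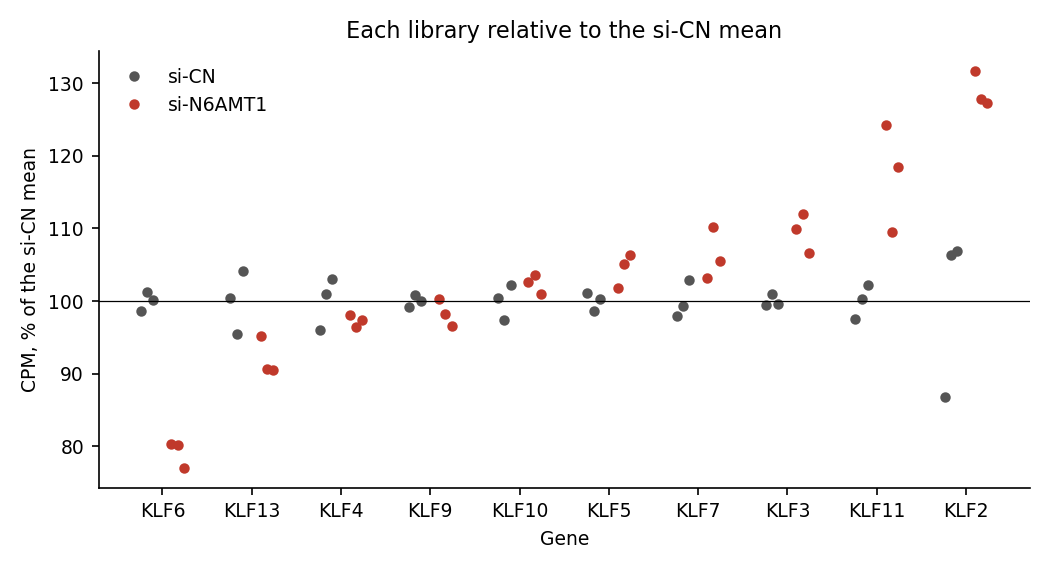
CPM of each of the 10 members in each library, as a percentage of the gene's mean in si-CN (y axis), with 1 point for each si-CN (grey) or si-N6AMT1 (red) library, n = 3 each. The si-N6AMT1 libraries of KLF6, at 102.8 to 107.2 CPM against 131.6 to 135.1 CPM in si-CN, lie farthest below the line of 100%.

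In a search for shared sequence, the 3′ UTR of KLF6 stood out among the members for holding the words TTCACAT and TCACATA both joined in a word of 8 bases, TTCACATA, and TCACATA once more by itself. These words came from an earlier look at the same fold changes, with that of KLF6 among them, so their presence in KLF6 is no independent evidence. The sites in KLF6 and in the 4 other members with a printable site are shown, 5′ to 3′ on the strand of the transcript (GRCh37), with the matched word in capitals and up to 11 bases on either side. KLF10 also held a site, given here by position only, at base 208 after the stop codon.
KLF6, base 1654 of the 3′ UTR, chr10:3820059-3820088, minus strand: aaggcacaagtTTCACATAtctgtctagct
KLF6, base 2388 of the 3′ UTR, chr10:3819326-3819354, minus strand: gtgactaacgcTCACATAactggtttttt
KLF5, base 907 of the 3′ UTR, chr13:73650920-73650949, plus strand: agggtgtcgttTTCACATAtgacaatgttg
KLF3, base 1089 of the 3′ UTR, chr4:38699962-38699990, plus strand: tatcaaattaaTCACATAgcttttataca
KLF9, base 2970 of the 3′ UTR, chr9:72999705-72999733, minus strand: tgagatgttctTTCACATcagatgatctg
KLF13, base 2284 of the 3′ UTR, chr15:31666775-31666803, plus strand: tgtctcaggaaTTCACATtccaggttcag

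The log2 fold changes of members with and without a site overlapped. KLF6 and KLF5 both held the word of 8 bases, and their log2 fold changes were −0.34 and 0.06. KLF3, KLF9, KLF10 and KLF13 held a word of 7 bases, with log2 fold changes of 0.13, −0.02, 0.03 and −0.12. KLF2, KLF4, KLF7 and KLF11 held none, with 0.36, −0.04, 0.09 and 0.23. KLF7 had the longest 3′ UTR of the 10, at 7076 bases, and KLF4 the shortest, at 899. A site is common in UTRs of this size: among tested genes with a 3′ UTR within 20% of the length of that of KLF6 (3543 bases), 41.9% held either word and 8.64% the word of 8 bases. For KLF5 (1652 bases) the shares were 18.8% and 4.15%. The share with either word was 46.7% near the length of KLF3, 39.6% for KLF9, 16.7% for KLF10 and 57.3% for KLF13. For the members without a site it was 19.1% (KLF2), 9.35% (KLF4), 67.0% (KLF7) and 29.8% (KLF11).

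Over all 13146 tested genes with a 3′ UTR of at least 50 bases, the word of 8 bases was found in 618 genes (4.70%), whose median log2 fold change was −0.10. Of these, 41.1% were called lower and 4.05% higher. In 2340 genes (17.8%) only a word of 7 bases was found, with a median of −0.05, 25.0% lower and 6.54% higher. The other 10188 genes (77.5%) had a median of 0.02, 10.4% lower and 13% higher. These classes were not matched for the length of the 3′ UTR. Genes near the length of KLF4 (899 bases) held a word in 9.35% and those near KLF7 (7076 bases) in 67.0%, so word and length are mixed here. KLF6, at −0.34, lay below the median of its class and KLF5, at 0.06, above it. Since the words were picked from these fold changes, the shares describe the libraries. The sequence of the siRNA was not given in the sources used here, and a part of either siRNA in these values was not tested.

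**Figure D2:**
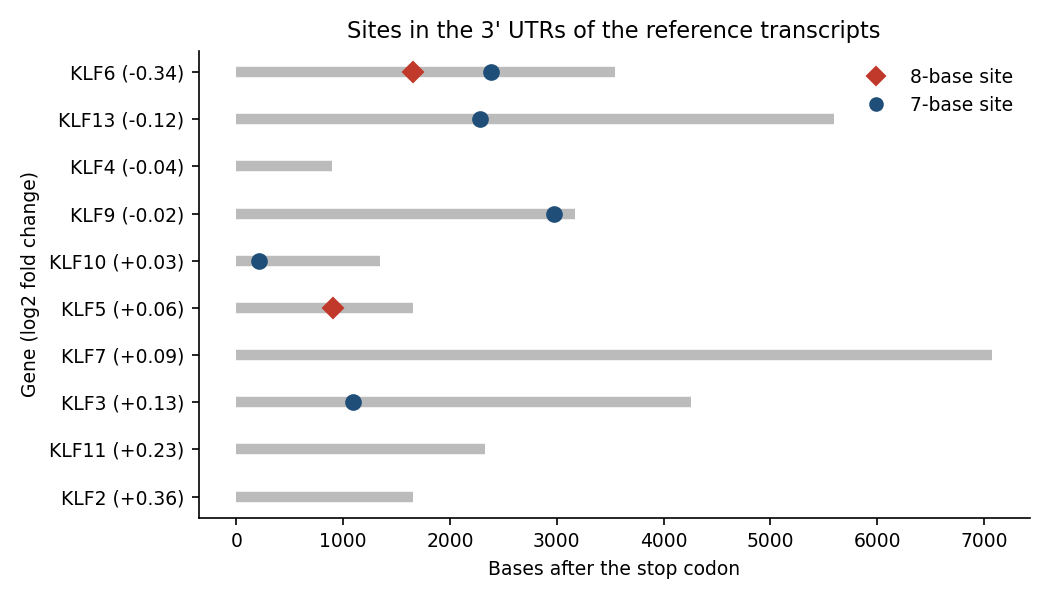
Sites along the 3′ UTRs of the 10 members, with the distance from the stop codon in bases on the x axis, the UTR as a grey bar, the word of 8 bases as a red diamond and a word of 7 bases as a blue circle. Of the 10 UTRs, 6 hold a site and 4 hold none, and both KLF6 (log2 fold change −0.34) and KLF5 (0.06) hold the word of 8 bases.

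Of the 9 paralogs of KLF6, 3 rose (KLF2, KLF3 and KLF11), 0 fell and 6 did not pass FDR = 0.05 in edgeR's quasi-likelihood test. At an unadjusted p of 0.05, 1 was lower and 5 were higher, against 16.4% and 15.4% of all tested genes. DESeq2 and limma-voom also called 0 lower. DESeq2 called 2 higher, KLF3 and KLF11, and limma-voom called 4, with KLF5 added to the 3 of edgeR (FDR = 0.0484, limma-voom). Over all tested genes, 21.3% were called, 11.5% lower and 9.78% higher, and nothing is read from the members' share because they were chosen with these results in view. In 5 paralogs (KLF2, KLF3, KLF5, KLF7 and KLF11) all si-N6AMT1 libraries were above all si-CN libraries, and in 1 (KLF13) all were below. Such separation was seen in 34.9% of tested genes, 16.8% upwards and 18.0% downwards. The median log2 fold change was 0.06 over the 9 paralogs and 0.00 over all tested genes.

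KLF7 is the closest relative of KLF6 in the family and is known from neuronal development. Its 3 si-N6AMT1 libraries stood at 96.6, 103.2 and 98.7 CPM and its si-CN libraries at 91.6, 92.9 and 96.3 CPM. The groups were apart by less than 1 CPM, with a log2 fold change of 0.09 (SE 0.0316, FDR = 0.0536, edgeR's quasi-likelihood test). It passed the threshold without si-N6AMT1 replicate 1 (FDR = 0.0276, edgeR) and without si-CN replicate 3 (FDR = 0.0410, edgeR). The long noncoding RNA gene MYOSLID overlaps the span of KLF7 on the opposite strand. Whether their exons overlap was not checked, so it is not known whether the 2 genes can share reads. MYOSLID had 893 to 976 counts in si-N6AMT1 and 713 to 785 in si-CN, 42.9% of the counts of KLF7, and it rose by a log2 fold change of 0.33 (SE 0.0412, FDR = 3.02e-06, edgeR's quasi-likelihood test). The paper names a stranded mRNA library kit, but the strand setting of the counting was not given in the sources used here. The part of MYOSLID in KLF7 was not tested. The level of KLF6 per length was 2.02, 1.89 and 1.90 times that of KLF7 in si-N6AMT1 and 2.62, 2.65 and 2.53 times in si-CN. This ratio of TPM, 1.94 ± 0.0749 against 2.60 ± 0.0613 (SD, n = 3 each), did not overlap between the groups, and it carries the change for which KLF6 was chosen.

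KLF2, KLF4 and KLF5 act mainly as activators. KLF2, best known from endothelium, where it keeps vessels quiescent, was the lowest of the 10 members. It had 121 counts in each si-N6AMT1 library and 79, 97 and 105 counts in si-CN, or 5.96 ± 0.111 against 4.62 ± 0.527 CPM (SD, n = 3 each). KLF2 rose by a log2 fold change of 0.36 (SE 0.115, FDR = 0.0261, edgeR's quasi-likelihood test), or 28.7%. The call depended on the tool and the libraries. DESeq2 did not call KLF2 (FDR = 0.137 over genes with a TPM of at least 1, and no adjusted p over all genes). In edgeR the call was lost without si-N6AMT1 replicate 1, 2 or 3 (FDR = 0.0644, 0.0542 and 0.0527, edgeR) and without si-CN replicate 1, the lowest library, where the log2 fold change was 0.27 (FDR = 0.134, edgeR). Of the endothelial markers, CDH5 had 0 to 2 counts and VWF 14 to 22 counts in any library.

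KLF4, one of the reprogramming factors, stood at 208.5, 204.9 and 207.1 CPM in si-N6AMT1 and at 204.1, 214.6 and 219.0 CPM in si-CN. The groups overlapped, and the log2 fold change was −0.04 (SE 0.0262, FDR = 0.320, edgeR's quasi-likelihood test). KLF5, the most abundant member, stood at 315.9, 325.9 and 329.9 CPM in si-N6AMT1 and at 313.8, 305.8 and 311.0 CPM in si-CN. Its si-N6AMT1 libraries were all higher, by a log2 fold change of 0.06 (SE 0.0230, FDR = 0.0579, edgeR's quasi-likelihood test). KLF5 passed the threshold under 4 of 14 other settings, among them without si-N6AMT1 replicate 1 (FDR = 0.0187, edgeR) and limma-voom (FDR = 0.0484).

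KLF3 belongs to the members that repress through the corepressor CtBP. It stood at 112.5, 114.7 and 109.1 CPM in si-N6AMT1 and at 101.8, 103.3 and 102.0 CPM in si-CN. All si-N6AMT1 libraries were higher, and KLF3 rose by a log2 fold change of 0.13 (SE 0.0283, FDR = 0.00155, edgeR's quasi-likelihood test), or 9.52%. It was called under all 14 other settings, with FDR between 0.000692 and 0.0218 in edgeR, DESeq2 or limma-voom. The antisense gene KLF3-AS1 had 21 to 34 counts in any library, 1.34% of those of KLF3, and processed pseudogenes of KLF2, KLF3, KLF4 and KLF7 had 0 to 3.

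KLF9, KLF10, KLF11 and KLF13 repress through the SIN3A corepressor. KLF10 and KLF11 were first described as early genes induced by TGF-β. KLF11 stood at 50.5, 44.5 and 48.2 CPM in si-N6AMT1 and at 39.6, 40.8 and 41.5 CPM in si-CN, and its groups did not overlap. KLF11 rose by a log2 fold change of 0.23 (SE 0.0455, FDR = 0.000653, edgeR's quasi-likelihood test), or 17.3%. It was called under all 14 other settings, with log2 fold changes from 0.19 to 0.28. The gene ENSG00000271787 on the opposite strand of KLF11 had 32 to 36 counts in si-N6AMT1 and 20 to 57 in si-CN, 3.91% of those of KLF11.

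KLF10 showed no such separation. It stood at 178.7, 180.3 and 175.7 CPM in si-N6AMT1 and at 174.8, 169.4 and 177.9 CPM in si-CN, with a log2 fold change of 0.03 (SE 0.0255, FDR = 0.397, edgeR's quasi-likelihood test). Per length, KLF11 stood at 0.194 ± 0.0135 of the level of KLF10 in si-N6AMT1 and at 0.169 ± 0.00508 in si-CN (ratio of TPM, SD, n = 3 each). KLF9, known from the response to steroid and thyroid hormones, stood at 20.1, 19.7 and 19.4 CPM in si-N6AMT1 and at 19.9, 20.3 and 20.1 CPM in si-CN, with a log2 fold change of −0.02 (SE 0.0573, FDR = 0.826, edgeR's quasi-likelihood test). KLF13, known from T-cell chemokine expression, stood at 35.8, 34.1 and 34.1 CPM and at 37.8, 35.9 and 39.2 CPM in the same order. The groups of KLF13 did not overlap but came close, and its log2 fold change was −0.12 (SE 0.0455, FDR = 0.0647, edgeR's quasi-likelihood test). It passed the threshold without si-CN replicate 2 (FDR = 0.0367, edgeR).

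Levels between members were compared per length, as TPM. In si-CN, KLF5 was highest at 206 TPM, followed by KLF4 at 161, KLF10 at 133, KLF6 at 64.8, KLF3 at 40.8, KLF7 at 25.0, KLF11 at 22.5, KLF13 at 12.3, KLF9 at 8.61 and KLF2 at 3.66. In that group the ranges of no pair of neighbours overlapped. The order was the same in si-N6AMT1, where KLF7 (25.95 to 27.22 TPM) and KLF11 (24.35 to 28.16 TPM) were the only neighbours whose ranges overlapped. KLF6 kept the fourth place in both groups, at 51.2 ± 1.43 TPM in si-N6AMT1 and 64.8 ± 1.56 TPM in si-CN (SD, n = 3 each). The 10 members summed to 677.5 to 686.7 TPM in si-N6AMT1 and to 663.2 to 694.2 TPM in si-CN, so the sums overlapped. Within these sums, KLF6 made up 7.52% ± 0.173 in si-N6AMT1 and 9.55% ± 0.154 in si-CN, and KLF5 31.6% ± 0.673 and 30.4% ± 0.547 (SD, n = 3 each).

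**Figure D3:**
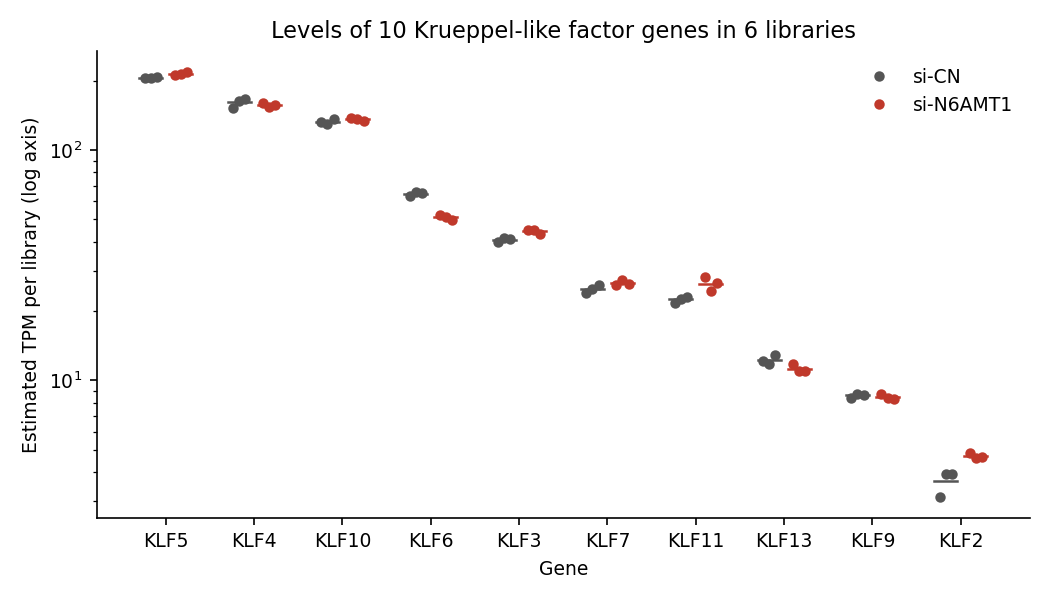
Level of each of the 10 members in TPM on a log axis, ordered by the si-CN mean, with 1 point for each library (n = 3 in each group) and a line at the group mean. KLF5 is highest (206 TPM in si-CN) and KLF2 lowest (3.66 TPM), and KLF6 keeps the fourth place in both groups.

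Of the remaining 17 KLF and SP genes, 12 passed the filter. SP factors share the zinc fingers of the family and bind GC boxes. SP3 and SP4 fell, SP8 rose, and 9 did not pass the threshold, with a median log2 fold change of −0.09. These 3 calls among 12 genes were close to the share of 21.3% over all tested genes. In 4 of the 12 genes all si-N6AMT1 libraries were lower and in 2 all were higher, where 18.0% and 16.8% of all tested genes were so separated. SP4, abundant in neurons, had a log2 fold change of −0.29 (SE 0.0695, FDR = 0.00418, edgeR's quasi-likelihood test) and was called under all 14 other settings. For SP3, a ubiquitous relative of SP1, the value was −0.11 (SE 0.0292, FDR = 0.0103, edgeR), and the call was lost without si-CN replicate 2 (FDR = 0.0590). It was also lost in both DESeq2 fits (FDR = 0.0884 over all genes and 0.0711 with the TPM filter) and under a replicate block with GC correction, where the value was −0.06 (FDR = 0.178, edgeR). SP8, known from limb development, had 0.18 (SE 0.0530, FDR = 0.0158, edgeR), and lost its call without si-N6AMT1 replicate 3, si-CN replicate 1 or si-CN replicate 3 (FDR = 0.0547, 0.0537 and 0.0766) and in both DESeq2 fits (FDR = 0.147 and 0.102).

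KLF15 had the lowest log2 fold change of the tested family, −1.11 (SE 0.430, FDR = 0.0726, edgeR's quasi-likelihood test), but from only 3, 5 and 10 counts in si-N6AMT1 and 11, 17 and 11 in si-CN. It passed the filter through the si-CN libraries, the group where it was higher, so nothing is read from its value, which was −1.67 without si-N6AMT1 replicate 3. The CtBP-binding members KLF8 and KLF12 had −0.19 (SE 0.337) and −0.09 (SE 0.0525), and KLF16 had 0.07 (SE 0.0519). SP1 had −0.04 (SE 0.0288), SP2 −0.10 (SE 0.0515), SP5 −0.22 (SE 0.177), SP6 0.20 (SE 0.186) and SP9 0.44 (SE 0.263). Single libraries moved the last 3: without si-CN replicate 1, SP5 had −0.12 and SP9 0.24, and without si-CN replicate 3, SP6 had 0.10 and SP9 0.67. KLF1, KLF14, KLF17, KLF18 and SP7 had 0 to 14 counts in any library and were not tested. In 3′ UTRs, 8 of the 16 such genes with an annotated one held a word of 7 bases, and 0 held that of 8. The 8 were KLF8, KLF12, KLF14, KLF15, SP1, SP3, SP4 and SP8. Over all tested genes with a 3′ UTR, 17.8% held only a word of 7 bases. Some of these UTRs were long, such as SP3 at 9166 and KLF12 at 9401 bases. No share at matched length was computed for them, so nothing is read from the count.

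**Figure D4:**
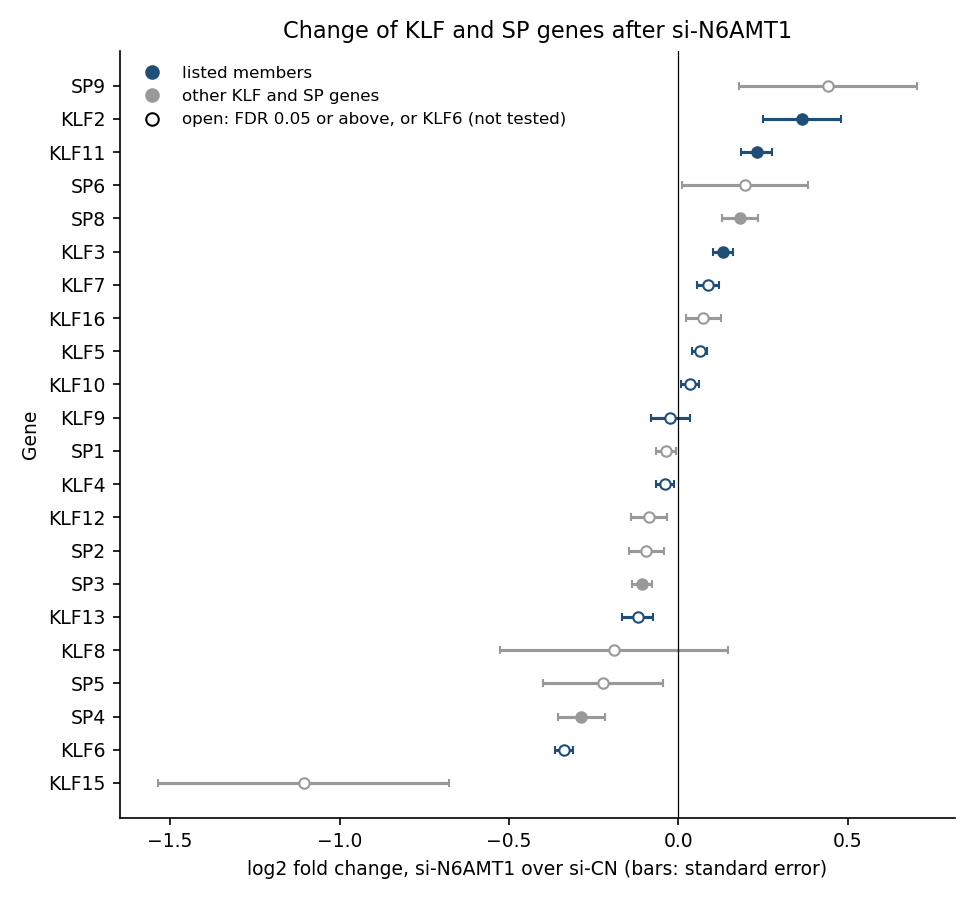
Log2 fold change (si-N6AMT1 over si-CN, x axis) of the 10 members (blue) and the 12 other tested KLF and SP genes (grey), with bars for the standard error, filled where FDR is under 0.05 and open where it is not or, for KLF6, where no test was made. Among the members KLF6 lies lowest, at −0.34, and KLF2 highest, at 0.36, while KLF15, at −1.11, has the widest bar of all.

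The genes described as bound or activated by KLF6 moved in both directions. Of 12 listed, 11 were tested. PLAU, CCND1 and TGFBR1 fell, TGFBR2, CDH1 and ATF3 rose, and 5 did not pass the threshold, with a median log2 fold change of 0.00. Over all tested genes, 11.5% were called lower and 9.78% higher. The list was chosen with earlier results of these data known, so nothing is read from its share. NOS2 had 0 to 1 counts. PLAU, the urokinase-type plasminogen activator, stood at 87.5 ± 2.66 CPM in si-N6AMT1 and 158 ± 0.862 CPM in si-CN (SD, n = 3 each), a log2 fold change of −0.85 (SE 0.0278, FDR = 8.18e-16, edgeR's quasi-likelihood test). CCND1, which encodes the G1 cyclin D1, stood at 130 ± 1.56 and 193 ± 3.22 CPM, a log2 fold change of −0.57 (SE 0.0252, FDR = 1.91e-13, edgeR). TGFBR1, the type I receptor for TGF-β, had −0.27 (SE 0.0648, FDR = 0.00406, edgeR). PLAU held the word of 8 bases in its 3′ UTR, CCND1 a word of 7 bases, and TGFBR1 none.

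On the other side, TGFBR2, the type II receptor, stood at 148 ± 1.76 and 127 ± 1.65 CPM, a log2 fold change of 0.22 (SE 0.0256, FDR = 8.65e-07, edgeR's quasi-likelihood test). CDH1, the E-cadherin of epithelial junctions, stood at 7.18 ± 0.254 and 4.97 ± 0.852 CPM, a log2 fold change of 0.54 (SE 0.118, FDR = 0.00183, edgeR). ATF3, a stress-induced transcription factor, had 0.15 (SE 0.0402, FDR = 0.00811, edgeR), and its call was lost without si-CN replicate 3 (FDR = 0.0856, edgeR) and in DESeq2 over all genes (FDR = 0.0670). None of these 3 genes held a word in its 3′ UTR. CDKN1A, the CDK inhibitor p21, had a log2 fold change of 0.05 (FDR = 0.108, edgeR's quasi-likelihood test).

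Among 21 cofactors, ubiquitin ligases and upstream regulators of Krueppel-like factors, 3 fell, 2 rose and 16 did not pass the threshold, with a median log2 fold change of 0.01. This is close to the shares over all tested genes, 11.5% lower and 9.78% higher. The corepressors CTBP1, CTBP2 and SIN3A were among the latter. FBXO32, the F-box protein atrogin-1, stood at 29.7 ± 1.65 CPM in si-N6AMT1 and 23.1 ± 0.958 CPM in si-CN (SD, n = 3 each). It rose by a log2 fold change of 0.36 (SE 0.0550, FDR = 3.33e-05, edgeR's quasi-likelihood test), was called under all 14 other settings, and held the word of 8 bases in its 3′ UTR. FBXW7, an F-box protein that directs KLF5 and other regulators to degradation, had −0.23 (SE 0.0588, FDR = 0.00560, edgeR). Its call was lost without si-CN replicate 2 (FDR = 0.0555, edgeR) and in DESeq2 over all genes (FDR = 0.0535). The other calls were small and less stable. SAP30, a SIN3 subunit, had −0.23 (SE 0.0699) and lost its call without si-N6AMT1 replicate 1 or 3 or si-CN replicate 2 or 3 (highest FDR = 0.0936, edgeR). HDAC1, a histone deacetylase, had −0.08 (SE 0.0252) and lost it without si-N6AMT1 replicate 1 or 2 or si-CN replicate 2 or 3 (highest FDR = 0.0944, edgeR). SMURF1, a ubiquitin ligase, had 0.10 (SE 0.0313) and lost it in each leave-out except that of si-CN replicate 3 (highest FDR = 0.101, edgeR). The call of SMURF1 was also lost with a replicate block (FDR = 0.0515), with the block and GC correction (FDR = 0.0750) and with no expression filter (FDR = 0.0617, edgeR). None of SAP30, HDAC1 and SMURF1 was called in either DESeq2 fit (FDR from 0.0915 to 0.193). The third gene by FDR on the higher side, VHL, had 0.08 (FDR = 0.104, edgeR's quasi-likelihood test).

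**Figure D5:**
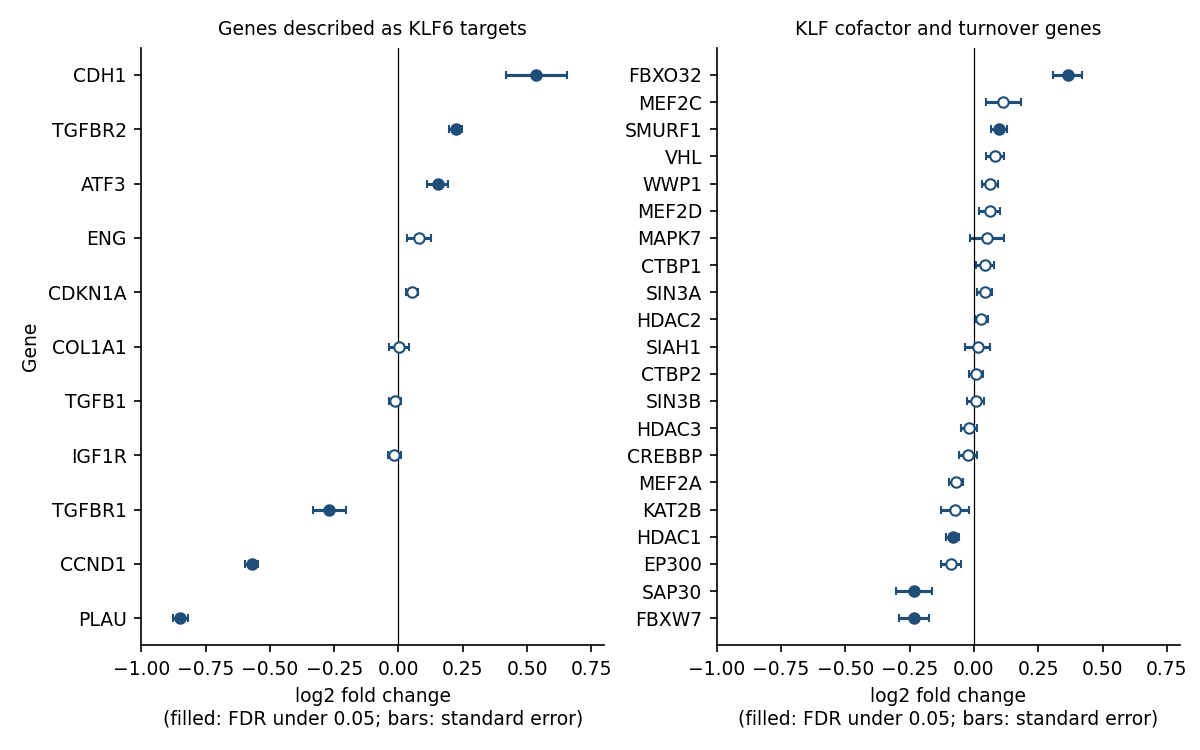
Log2 fold change (si-N6AMT1 over si-CN, x axis) of the 11 tested genes described as KLF6 targets (left) and of the 21 cofactor and turnover genes (right), with bars for the standard error and filled points where FDR is under 0.05. The KLF6 targets extend to both sides, from −0.85 (PLAU) to 0.54 (CDH1), and the cofactor and turnover genes from −0.23 (FBXW7) to 0.36 (FBXO32).

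Across the 6 libraries, the log2 CPM of other genes was set beside that of KLF6 as a description. Among 9730 tested protein-coding genes with a mean of at least 10 CPM, CDCP1 (Pearson's r = 0.999), SLC6A6 (0.999), MYH10 (0.999), ABLIM1 (0.998) and RAB3GAP1 (0.998) were most like KLF6. SFN (−0.999), RHOBTB1 (−0.998), TGFBR2 (−0.998), SERPINE2 (−0.998) and DUSP5 (−0.997) were most unlike it. The 6 points share 2 groups of libraries, so any gene that separated the groups cleanly scores high, and 1314 genes had r above 0.9 and 919 below −0.9. Genes at the top differed in size of change, from a log2 fold change of −0.13 for ABLIM1 to −0.32 for SLC6A6. Among the members, KLF13 (r = 0.806) and KLF9 (0.670) were most like KLF6, KLF4 had 0.564, and KLF3 (−0.903), KLF11 (−0.887), KLF5 (−0.875) and KLF2 (−0.843) were most unlike it. KLF7 had −0.753 and KLF10 −0.573.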

How the data were processed

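RNA-seq of 3 si-N6AMT1 and 3 si-CN libraries from one cell line was analysed, and groups and replicate numbers were taken from the labels. The authors trimmed paired-end reads with Trim Galore, estimated counts with kallisto 0.46.0 on a GENCODE annotation of hg19 and summed them per gene. They deposited expected counts (estimated counts) as whole numbers without normalization. Reads that match several transcripts are shared out by kallisto, which leaves the counts of paralogs, pseudogenes and overlapping genes uncertain. The depth of 19739247 to 21289740 counts limits the precision of genes with few counts.

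Symbols were matched for 62149 of 62438 identifiers. Genes were filtered with edgeR's minimum count of 10, scaled by TMM and tested with edgeR 4.0.16 (quasi-likelihood, FDR threshold 0.05 by Benjamini-Hochberg over 17320 genes) in R 4.3.3. The scripts were tested on simulated data. TPM was computed from the reference transcript length. 3′ UTRs were read from the annotation and sequence of GRCh37. DESeq2 1.42.0 (the authors' tool), limma-voom 3.58.1, a replicate block, other filters and normalizations, and left-out libraries were the alternatives.

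The members and lists were chosen with earlier results of these data known. Named genes were N6AMT1, the 10 members, all tested KLF and SP genes, the 3 smallest FDR per direction in the cofactor and target lists, and the 5 genes most and least correlated with KLF6. The endothelial marker PECAM1 had no match by symbol. A luminal marker is not reported here. Summed fibroblast markers ran from 7.78 to 8.51 TPM in si-N6AMT1 and 6.58 to 7.83 in si-CN, endothelial ones from 0.232 to 0.257 and 0.208 to 0.315, and leukocyte ones from 253 to 269 and 182 to 187, nearly all CD68.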

Additional observations from a re-analysis of the deposited data

How the results depend on the processing

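The log2 fold change of KLF6 kept its direction in all 14 alternatives (−0.35 to −0.32), and KLF3 and KLF11 were called in each. DESeq2 called 1935 genes over all genes and 2170 over those with an estimated TPM of at least 1, against 3687 in edgeR. It called 1 other KLF or SP gene (3 in edgeR) and 2 paralogs (3 in edgeR) in either fit. Of the cofactor and turnover genes it called 1 and 2 (5 in edgeR). It gave N6AMT1 a log2 fold change of −1.10 with no adjusted p (NA) over all genes. The cause of these differences between tools was not tested. The paralogs called went from 3 to 5 with the mitochondrial genome left out of library sizes, where KLF5 and KLF7 were added, and to 5 with a replicate block and GC correction, where KLF2 was lost (FDR = 0.0752) and KLF5, KLF7 and KLF13 were added (FDR = 0.0469, 0.0234 and 0.0298, edgeR). Leaving out each library gave 2835 to 3339 called genes, 2 to 4 paralogs, 2 to 3 other KLF and SP genes, 2 to 4 cofactor and turnover genes and 5 to 6 KLF6 targets. The labels do not say that replicate numbers pair cultures, so the numbers were not read as pairs. Libraries with the same number did not deviate together (r = −0.0381, −0.0422 and 0.00997). Those with different numbers had r from −0.0117 to 0.0494, so these values cannot decide on pairing. A replicate block alone gave 3325 called genes and 3 paralogs. Over 33 named genes, 407 values kept their side of the threshold, 42 lost it and 11 gained it, and none changed direction. N6AMT1, KLF6 and the genes named for their correlation with KLF6 were not among the 33. A missing adjusted p in DESeq2 was counted as not passing. Among the named genes depth limits KLF15 and KLF8 most, at 3 to 17 counts per library.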
